A study of Mus musculus with 12 samples.

Results

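The genes Atf3, Atf4, Atf5, Ddit3, Cebpb, Cebpd, Cebpg, Trib3, Nupr1 and Asns form the transcription factor core of the cellular stress response together with 3 of its companions. They were taken by symbol from a matrix of 56980 genes in the livers of obese mice on a low or a standard protein diet. The 10 symbols matched 11 rows, because Ddit3 stood on 2 of them. The second Ddit3 row, a locus with a deposited length of 105 bases, held at most 0.98 counts in any liver and missed the filter on low counts. The other 10 rows, 1 for each symbol, were tested among 13768 genes.

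All 12 mice were B6.Cg-Lepob/J (ob/ob) males, whose genotype is given as Lep-/-. They lack leptin, the satiety hormone of fat cells, and become obese whatever the diet. From the age of 8 weeks the low protein diet group (LPD, 6 livers) ate chow with 5% of energy as protein and the standard protein diet group (SPD, 6 livers) chow with 25%, for 3 weeks and without restriction of intake. No lean mice were part of the comparison. The question was how protein restriction alters liver metabolism and fatty liver, and liver RNA was sequenced in bulk.

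Totals ranged from 19404340 to 23681408 counts in LPD livers and from 19374676 to 23710930 in SPD livers. LPD replicate 1 is low protein by its title and library code but 25% protein by its treatment label and description. It was kept in LPD. On the first principal component LPD replicates 2 and 5 lay at -48.7 and -44.6, away from the remaining LPD livers at -15.3 to -22.5 and from SPD livers at 24.7 to 32.1. Library codes begin with LP4 in 4 and LP5 in 2 LPD livers and with SP1 in 4 and SP2 in 2 SPD livers. The labels do not say what the codes stand for, and a difference between LP and SP codes cannot be told apart from the diet. Hepatocyte markers were abundant in every liver. Their level was summed in CPM, the read count normalised for library depth. The sum was 103644 to 111398 CPM in SPD livers. In LPD replicates 2 and 5 it was 110297 and 117944 CPM. The other 4 LPD livers, at 90837 to 97659 CPM, lay below every SPD liver.

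When amino acids run short or unfolded proteins build up, kinases phosphorylate the initiation factor eIF2 alpha, which slows most translation but lets ribosomes reach the coding sequence of ATF4. ATF4 is a basic leucine zipper (bZIP) protein. It pairs with members of the C/EBP family and binds composite C/EBP-ATF sites in genes of amino acid supply such as Asns and in the genes of further stress factors, among them Ddit3 (CHOP), Atf3 and Trib3. TRIB3 in turn binds ATF4 and restrains it. Because ATF4 is controlled to a large extent at translation, its mRNA is only a part of its control, and protein was not measured here.

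The promoter windows of 4 members held the letters TGATGNAA, the core of composite C/EBP-ATF sites, on one of the strands. The stretches are shown so that the matches can be read; genes with and without a match rose on the low protein diet. Promoter windows in RefSeq (GRCm38.p6, 250 bases before to 50 after each start) were found for 9 of the 10 symbols, with 2 windows for Atf5. Cebpd was not matched. Over the 32851 windows counted, all of full length and with a chromosome that holds no member left out, 3.97% held the letters. Each stretch reads 5′ to 3′ on the minus strand, where all 4 genes lie, and capitals mark the match. In Asns the match reads as searched, and in the other 3 it is the reverse complement.
Asns, chr6:7693214-7693243: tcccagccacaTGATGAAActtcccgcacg
Atf3, chr1:191183425-191183454: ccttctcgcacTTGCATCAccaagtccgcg
Nupr1, chr7:126625562-126625591: aaagggccagaTTGCATCAgacagggcttg
Trib3, chr2:152344028-152344057: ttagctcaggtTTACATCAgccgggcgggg
The match began 23 bases before the start in Asns and 110 bases before it in both Atf3 and Nupr1. In Trib3 it began 14 bases after the start. The windows of Atf4, Atf5, Ddit3, Cebpb and Cebpg held no match to these letters, and of these 5 genes 4 rose as well, all but Cebpb. The letters TTGCNNAA, a C/EBP core read on both strands, occurred in no member's window and in 10.8% of the windows counted.

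Of the 10 genes, 8 were higher in LPD livers than in SPD livers, none was lower, and Cebpb and Cebpd did not pass the test. Calls rest on edgeR's quasi-likelihood test with an adjusted p under 0.05. Of all tested genes, 20.7% were called higher and 19.2% lower, 39.9% in all. The median log2 fold change (LPD over SPD) of the 10 genes was 1.09, against -0.00059 over all tested genes. In 6 of the 10 genes every LPD liver lay above every SPD liver, as was so for 10.2% of all tested genes, while 9.73% had every LPD liver below every SPD liver. These 6 were Atf5, Cebpg, Trib3, Ddit3, Nupr1 and Asns. At least 2-fold rises were made by 5 of the 10 genes, among 190 such genes in all.

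**Figure D1:**
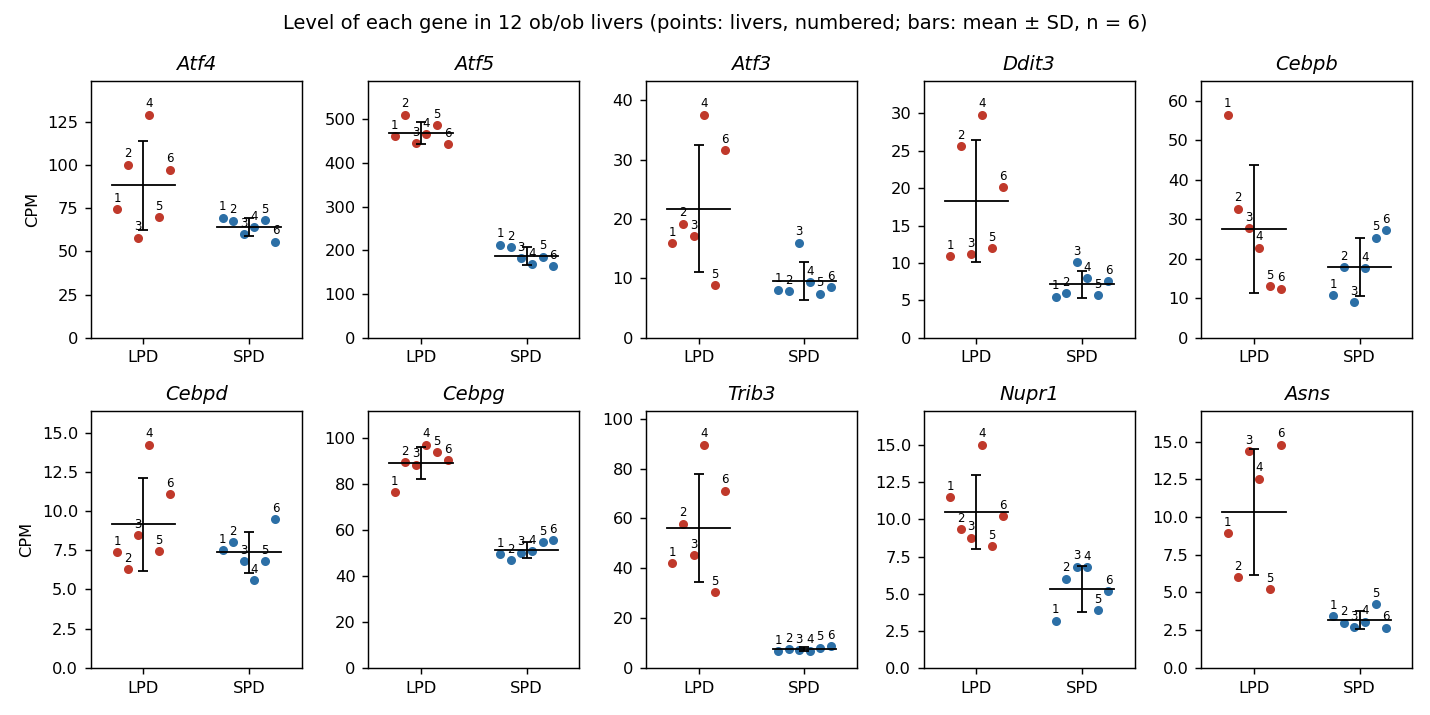
Level of each of the 10 genes (CPM, vertical axis from 0) in 6 LPD and 6 SPD livers; points are livers labelled with their replicate number, horizontal bars are means and vertical bars SD. LPD and SPD points do not overlap for Atf5, Ddit3, Cebpg, Trib3, Nupr1 and Asns, and LPD points are spread more widely for Trib3, from 30.5 to 89.6 CPM, than SPD points, from 6.76 to 8.68 CPM.

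Atf4 (ENSMUSG00000042406, chromosome 15, 80255184 to 80257541, plus strand, GRCm38), the central factor, was higher in LPD livers by a small amount. Its level was 74.7, 100.3, 58.0, 129, 69.8 and 97.4 CPM in LPD replicates 1 to 6, against 69.5, 67.9, 60.0, 63.9, 68.0 and 55.7 CPM in SPD replicates 1 to 6. The diets overlapped: 5 LPD livers lay above every SPD liver, while LPD replicate 3 lay within the SPD range. Means were 88.3 ± 25.9 CPM in LPD and 64.2 ± 5.44 CPM in SPD livers (SD, n = 6 each), a rise of 1.38-fold (log2 0.46 ± 0.15 SE, adjusted p = 0.0227). The call was lost in limma-voom with sample weights (0.36, adjusted p = 0.0681) and when libraries coded SP1 and LP4 were analysed by themselves (0.47, adjusted p = 0.0931). It was kept in the other 20 alternatives, with adjusted p between 0.00346 and 0.0497.

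Atf5 (ENSMUSG00000038539, chromosome 7, 44812256 to 44816658, minus strand), a close relative of Atf4 that is also controlled at translation, had the smallest adjusted p of the 10 genes and ranked 5 among all tested genes. Its level was 462, 511, 445, 467, 486 and 444 CPM in LPD livers, against 213, 207, 183, 168, 186 and 165 CPM in SPD livers. The lowest LPD liver thus stood far above the highest SPD liver, and LPD livers differed little among themselves. Atf5 rose 2.51-fold, to 469 ± 25.9 CPM in LPD against 187 ± 19.8 CPM in SPD livers (SD, n = 6 each; log2 1.33 ± 0.071 SE, adjusted p = 1.44e-08). Its coefficient of variation was 5.51% in LPD and 10.6% in SPD livers, the lowest of the 10 genes in LPD. Of its annotated exon bases, 82 of 1993 overlap Nup62 on the other strand, which fell (log2 -0.59 ± 0.086).

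Atf3 (ENSMUSG00000026628, chromosome 1, 191170296 to 191218039, minus strand) encodes a stress-inducible bZIP factor that mostly represses its targets. It measured 15.9, 19.2, 17.2, 37.6, 8.87 and 31.6 CPM in LPD livers, against 8.12, 7.82, 16.0, 9.34, 7.45 and 8.54 CPM in SPD livers. LPD replicates 4 and 6 were the highest and LPD replicate 5 lay inside the SPD range, as did LPD replicate 1 because SPD replicate 3 reached 16.0 CPM. Atf3 rose 2.28-fold, with means of 21.7 ± 10.7 CPM in LPD and 9.55 ± 3.24 CPM in SPD livers (log2 1.19 ± 0.29 SE, adjusted p = 0.00434).

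Ddit3 (ENSMUSG00000025408, chromosome 10, 127290774 to 127296288, plus strand) encodes CHOP, a C/EBP-like partner that promotes cell death under lasting stress. It measured 10.9, 25.7, 11.2, 29.9, 12.0 and 20.2 CPM in LPD livers, against 5.51, 5.97, 10.2, 7.97, 5.70 and 7.55 CPM in SPD livers. No LPD liver fell into the SPD range, though LPD replicates 1, 3 and 5 came close to SPD replicate 3. Ddit3 rose 2.57-fold, with means of 18.3 ± 8.19 CPM in LPD and 7.14 ± 1.79 CPM in SPD livers (log2 1.36 ± 0.26 SE, adjusted p = 0.000681). Its exons share 68 of 1713 annotated bases with the methionyl-tRNA synthetase gene Mars1 on the other strand, which rose by 0.17 ± 0.056 on the log2 scale.

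The C/EBP genes of the set did not behave alike. Cebpg (ENSMUSG00000056216, chromosome 7, 35046422 to 35056573, minus strand) encodes a short C/EBP protein that lacks an activation domain and serves ATF4 as a dimer partner. It measured 76.6, 89.5, 88.5, 97.1, 93.7 and 90.3 CPM in LPD livers, against 49.6, 46.9, 50.2, 50.8, 54.8 and 55.5 CPM in SPD livers. The diets were well apart and each was tight, with coefficients of variation of 7.83% in LPD and 6.38% in SPD livers. Cebpg rose 1.74-fold, to 89.3 ± 6.99 CPM in LPD against 51.3 ± 3.27 CPM in SPD livers (log2 0.80 ± 0.062 SE, adjusted p = 2.74e-07).

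Cebpb (ENSMUSG00000056501, chromosome 2, 167688915 to 167690418, plus strand) encodes an activator of liver acute phase and metabolic genes. It measured 56.6, 32.7, 27.7, 22.8, 13.0 and 12.5 CPM in LPD livers, against 10.8, 17.9, 8.97, 17.7, 25.3 and 27.2 CPM in SPD livers. The diets overlapped widely, and its coefficient of variation, 59.2% in LPD and 40.9% in SPD livers, was the highest of the 10 genes in either diet. The difference did not pass (means 27.5 ± 16.3 and 18.0 ± 7.37 CPM in LPD and SPD livers, log2 0.61 ± 0.35 SE, adjusted p = 0.174). Without LPD replicate 1 the estimate was 0.27 (adjusted p = 0.506), and with that liver counted as SPD it was -0.12 (adjusted p = 0.846).

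The Cebpb values differed by library code within each diet. The 4 LP4 livers averaged 35.0 CPM (22.8 to 56.6) and the 2 LP5 livers 12.7 CPM (12.5 to 13.0). The 2 SP2 livers averaged 26.3 CPM (25.3 to 27.2) and the 4 SP1 livers 13.9 CPM (8.97 to 17.9). Within each diet the codes did not overlap, and LP4 was the higher code in LPD and SP2 in SPD. In SPD livers the codes were also apart for Cebpg, at 46.9 to 50.8 CPM in SP1 and 54.8 to 55.5 CPM in SP2 livers. The same held for Trib3, at 6.76 to 7.48 CPM in SP1 and 8.19 to 8.68 CPM in SP2 livers. For both genes the LP4 and LP5 livers overlapped. Between the LP4 and SP1 livers by themselves Cebpb was called higher in LPD livers (log2 1.34, adjusted p = 0.00614), whereas both LP5 livers lay below both SP2 livers, a pairing of 2 livers each that was not tested. What the codes stand for is not given, and their part in the Cebpb values was not tested. Of the 1504 exon bases of Cebpb, 312 overlap Peds1 on the other strand. Peds1 fell to 28.8 CPM in LPD against 52.3 CPM in SPD livers (log2 -0.86 ± 0.059, adjusted p = 8.98e-08), and reads of the pair cannot be told apart without strand.

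Cebpd (ENSMUSG00000071637, chromosome 16, 15887286 to 15891031, plus strand) encodes another acute phase C/EBP factor. It measured 7.38, 6.28, 8.48, 14.2, 7.42 and 11.1 CPM in LPD livers, against 7.49, 8.01, 6.78, 5.60, 6.79 and 9.47 CPM in SPD livers. Only LPD replicates 4 and 6 lay above every SPD liver. The difference did not pass (means 9.15 ± 2.98 CPM in LPD and 7.36 ± 1.32 CPM in SPD livers, log2 0.32 ± 0.18 SE, adjusted p = 0.181). It passed without LPD replicates 2 and 5 (log2 0.49, adjusted p = 0.0429), whereas without LPD replicate 4, the highest liver, the estimate was 0.15 (adjusted p = 0.465). Of its 3746 exon bases, 562 overlap Spidr on the other strand (log2 0.19 ± 0.13, not past the test).

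Trib3 (ENSMUSG00000032715, chromosome 2, 152337422 to 152344032, minus strand), the pseudokinase that feeds back on ATF4, showed the largest change of the 10 genes. It measured 42.2, 57.9, 45.4, 89.6, 30.5 and 71.2 CPM in LPD livers, against 6.76, 7.48, 7.06, 6.97, 8.19 and 8.68 CPM in SPD livers. The deposited counts behind these values were 608 to 2092 in LPD livers and 132 to 188 in SPD livers. Every LPD liver stood well above the SPD range, and LPD livers differed from each other by up to 2.94-fold. Its rise (log2 2.90 ± 0.22 SE, adjusted p = 2.14e-07) ranked 13 among the rises of all tested genes, and its estimate was 2.24 to 3.06 over the alternatives. The low end was the estimate with LPD replicate 1 counted as SPD.

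Nupr1 (ENSMUSG00000030717, chromosome 7, 126623249 to 126630861, minus strand) encodes a small stress-induced chromatin protein. It measured 11.5, 9.33, 8.79, 15, 8.22 and 10.3 CPM in LPD livers, against 3.19, 6.02, 6.83, 6.81, 3.88 and 5.18 CPM in SPD livers. All LPD livers were above all SPD livers, with LPD replicate 4 the highest. Nupr1 rose 1.99-fold, with means of 10.5 ± 2.50 CPM in LPD and 5.32 ± 1.53 CPM in SPD livers (log2 0.99 ± 0.19 SE, adjusted p = 0.000774).

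Asns (ENSMUSG00000029752, chromosome 6, 7675169 to 7693254, minus strand) encodes asparagine synthetase, the classic target of ATF4 under amino acid shortage. It measured 8.93, 6.04, 14.4, 12.6, 5.21 and 14.8 CPM in LPD livers, against 3.43, 3.01, 2.69, 3.06, 4.22 and 2.66 CPM in SPD livers. The groups were apart, but LPD replicates 2 and 5 came nearest to the SPD range. The rise of 3.24-fold (log2 1.70 ± 0.25 SE, adjusted p = 8.19e-05) became 1.99 on the log2 scale without these 2 livers.

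**Figure D2:**
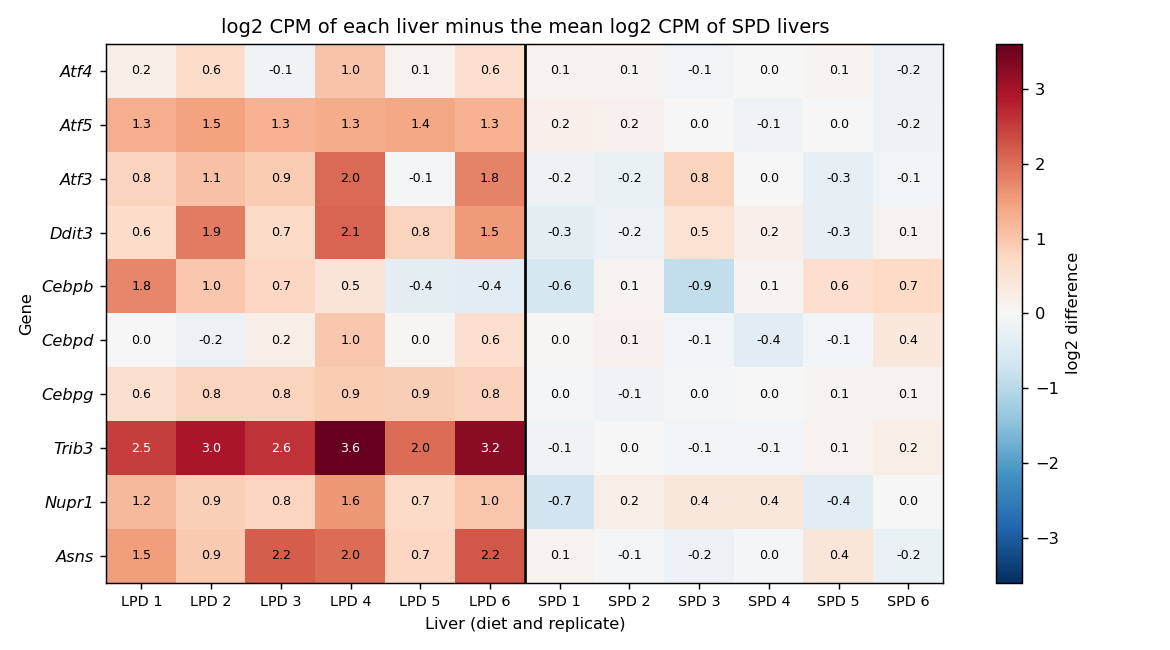
Log2 CPM of each of the 10 genes (rows) in each liver (columns, LPD left and SPD right of the line) minus the mean log2 CPM of the SPD livers; red is above and blue below that mean. Trib3 is the reddest row in LPD livers, and Atf5 and Cebpg are nearly even across LPD livers. Cebpb runs from 1.8 to -0.4 in LPD livers, and Atf3, Atf4 and Cebpd also reach below the SPD mean there. SPD values lie on both sides of that mean for every gene, because they are centred on it.

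The livers did not rank alike for all 10 genes. LPD replicate 4 was the highest LPD liver for 7 of them, namely Atf4, Atf3, Ddit3, Cebpd, Cebpg, Trib3 and Nupr1. LPD replicate 5 was the lowest LPD liver for 4, namely Atf3, Trib3, Nupr1 and Asns. The other 3 genes peaked elsewhere: Atf5 in LPD replicate 2, Cebpb in LPD replicate 1 and Asns in LPD replicate 6. The coefficient of variation was higher in LPD than in SPD livers for 8 of the 10 genes, the exceptions being Atf5 and Nupr1, and the gap was widest for Trib3, at 38.4% in LPD and 10.1% in SPD livers.

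Over the 12 livers of both diets pooled, some of the 10 genes went up and down together around their diet means. After the mean of each diet was subtracted from log2 CPM, Pearson's r over the 12 livers was 0.79 between Atf3 and Trib3, 0.78 between Atf3 and Ddit3, 0.75 between Atf4 and Trib3 and 0.72 between Ddit3 and Trib3. Atf5, in contrast, had r of -0.41 to 0.31 with the other 9 genes, and Cebpb of -0.23 to 0.079. The values pool both diets, and Trib3 spread more widely in LPD livers (coefficient of variation 38.4%) than in SPD livers (10.1%). Among SPD livers, replicate 3 was the highest for Atf3 and Ddit3 but replicate 6 for Trib3. SPD replicate 1 was the highest SPD liver for Atf4 and the lowest for Trib3. No r was taken within a single diet. Both genes of a pair were read from the same library of each liver, and the values carry no test.

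Levels between genes were compared per length, as CPM per kilobase of the deposited gene length. Atf5 stood highest in both diets, at 270.5 ± 14.9 CPM per kilobase in LPD and 107.8 ± 11.4 in SPD livers, and its livers did not overlap those of any other member. Atf4 followed, at 51.2 ± 15 in LPD and 37.2 ± 3.15 in SPD livers. In SPD livers Atf4 was apart from the next gene, Cebpb (12.0 ± 4.90), but in LPD livers its range overlapped that of Trib3. Trib3 stood at place 3 of 10 in LPD livers, at 27.7 ± 10.6, and at place 8 in SPD livers, at 3.71 ± 0.375. Below Atf4 in LPD livers, from Trib3 over Ddit3, Cebpg, Cebpb, Nupr1, Atf3 and Asns to Cebpd, each gene's range overlapped that of the next. In SPD livers the order below Atf4 was Cebpb, Cebpg, Ddit3, Nupr1, Atf3, Trib3, Cebpd and Asns, and of these neighbours only Trib3 and Cebpd were apart. Asns and Cebpd were the lowest in both diets, at 5.12 and 2.44 in LPD and 1.58 and 1.96 CPM per kilobase in SPD livers.

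**Figure D3:**
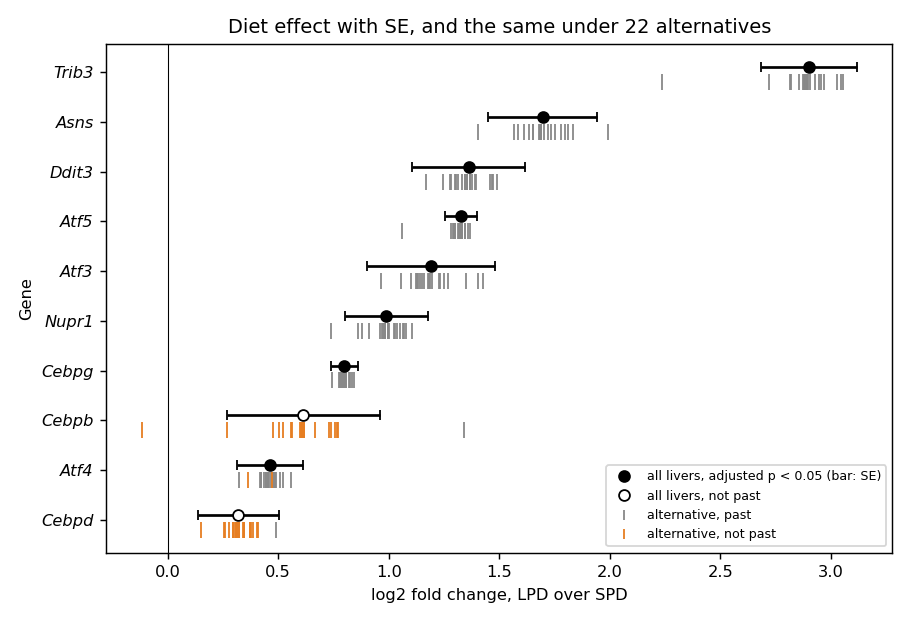
Log2 fold change (LPD over SPD, horizontal axis) of each gene with all 12 livers (circle, filled where the adjusted p is under 0.05; bar, SE) and under each of 22 alternatives (ticks, orange where not past). All ticks of Trib3, Asns, Ddit3, Atf5, Atf3, Nupr1 and Cebpg are grey and above 0, Atf4 has 2 orange ticks, and Cebpb spans -0.12 to 1.34.

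Patterns around the diet means were compared with those of 11341 other genes. Pearson correlation of log2 CPM was taken over the 12 livers after the mean of each diet was subtracted. The values are a description, since the best of so many genes is bound to be high, and both genes of a pair come from the same libraries. The genes most like Atf4 were Fgf21 (r = 0.940), which encodes the hormone FGF21, Kat7 (r = 0.937) and Inhbe (r = 0.926), which encodes an activin subunit. Fgf21 measured 78.4, 153, 51.9, 213, 56.8 and 195 CPM in LPD livers, against 19.1, 18.9, 13.2, 12.7, 14.1 and 10.7 CPM in SPD livers. As for Atf4, LPD replicate 4 was the highest and LPD replicate 3 the lowest LPD liver. Inhbe rose by 1.26 ± 0.17 on the log2 scale (adjusted p = 4.11e-05).

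For Trib3 the closest were Ifrd1 (r = 0.909), Myo10 (r = 0.904) and Scamp1 (r = 0.896). Ifrd1, a transcriptional coregulator gene, rose by 1.54 ± 0.20 (adjusted p = 2.61e-05), whereas Scamp1 fell by 0.29 (log2 fold change -0.29 ± 0.053, adjusted p = 0.000439). For Ddit3 they were Aff1 (r = 0.928), Tuba1c (r = 0.906) and Chd8 (r = 0.905). All 3 rose, by 0.43 ± 0.073, 0.76 ± 0.063 and 0.18 ± 0.052. For Asns they were the tubulin gene Tubb2a (r = 0.964), Uhrf1bp1 (r = 0.932) and Lpin3 (r = 0.924). Tubb2a (log2 fold change -0.91 ± 0.19, adjusted p = 0.00127) and Lpin3 (-0.50 ± 0.12, adjusted p = 0.00347) fell on the low protein diet. The first neighbours of the other 6 genes were Lonrf1 for Atf3 (r = 0.923), Cyc1 for Atf5 (r = 0.901), Mtrfr for Cebpb (r = 0.910), Apbb2 for Cebpd (r = 0.915), Med31 for Cebpg (r = 0.895) and Trp53bp1 for Nupr1 (r = 0.916). So a likeness around the diet means, with both diets pooled, went with the same change between diets for some pairs. For others it went with the opposite change.

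Further targets of ATF4 and CHOP were counted from a list of 50 genes that leaves out the 10 described above, of which 47 were tested. In LPD livers 22 were higher and 5 lower, and 20 did not pass, with a median log2 fold change of 0.17. Shares over all tested genes were 20.7% higher and 19.2% lower. Chac1, which encodes an enzyme that degrades glutathione, rose by 3.39 ± 0.33 (adjusted p = 2.39e-06). It measured 8.52 to 38.0 CPM in LPD livers and 1.48 to 4.0 CPM in SPD livers, with LPD replicate 5 the lowest LPD liver. The 3 smallest adjusted p among the rises belonged to Herpud1, of the degradation of endoplasmic reticulum proteins (1.20 ± 0.056), Slc3a2, the heavy chain of amino acid transporters (0.96 ± 0.077), and Eprs, a tRNA synthetase (0.62 ± 0.052). The 5 that fell were Tnfrsf10b, a death receptor (-2.12 ± 0.23, 0.581 CPM in LPD and 2.57 CPM in SPD livers), Slc7a11, the cystine transporter (-1.38 ± 0.42), Aldh18a1, of proline synthesis (-0.91 ± 0.23), the amino acid transporter Slc1a4 (-0.47 ± 0.15) and Klhl24 (-0.39 ± 0.11). Of these, Slc7a11 and Slc1a4 were chosen after their values were seen. Of the 5 falls, 3 were called without LPD replicates 2 and 5 and 3 between the LP4 and SP1 livers by themselves.

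Among 40 other tested bZIP genes, LPD livers had 15 higher and 4 lower, 21 missed the threshold, and the median log2 fold change was 0.11. By comparison, 20.7% of all tested genes were higher and 19.2% lower. Bach1, a repressor of haem and antioxidant genes, rose by 0.69 ± 0.068, the clock output factor Hlf by 0.64 ± 0.071, and Xbp1, of the unfolded protein response, by 0.65 ± 0.077. Nfe2l2, which encodes the antioxidant factor NRF2, fell (-0.50 ± 0.075, adjusted p = 9.41e-05), with Mafk (-0.45 ± 0.11), Maf (-0.18 ± 0.060) and the scarce Nfe2 (-2.85 ± 0.52, 30 counts over all LPD livers and 210 over all SPD livers). Maf was chosen after its value was seen. Cebpa, the main C/EBP factor of hepatocytes, did not pass (0.094 ± 0.10, adjusted p = 0.485, 235 CPM in LPD and 220 CPM in SPD livers), and its sign changed with LPD replicate 1 counted as SPD. Jun (-0.25 ± 0.18) and Fos (-0.28 ± 0.34) did not pass either. Without LPD replicate 4 Jun was called lower (-0.42, adjusted p = 0.0443), and the sign of Fos changed in 3 alternatives.

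**Figure D4:**
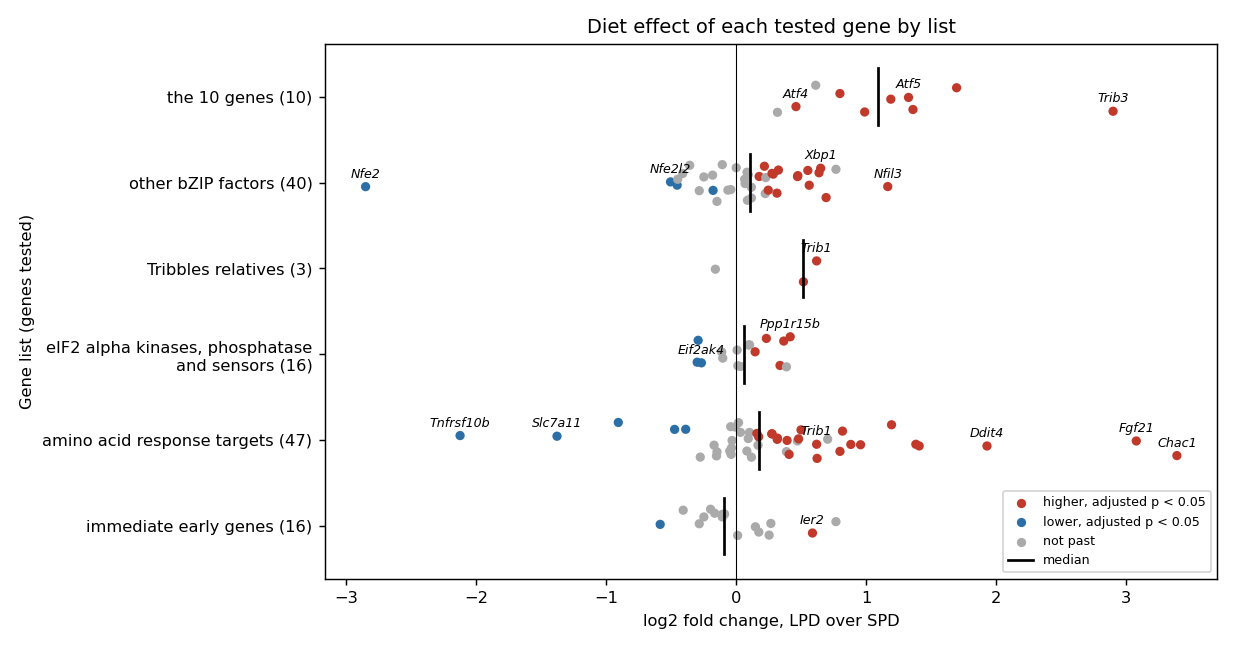
Log2 fold change (LPD over SPD, horizontal axis) of every tested gene in 6 lists (rows, number of tested genes in brackets); red is called higher, blue called lower, grey not past, and the black bar is the median. The 10 genes have a median of 1.09, against 0.11 for the other bZIP factors and 0.17 for the further targets.

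The relatives of Trib3 moved less. Trib1 rose by 0.62 ± 0.13 (adjusted p = 0.00142) and Stk40, a related pseudokinase gene, by 0.52 ± 0.061, and Trib2 was at 3.18 CPM in LPD and 3.56 CPM in SPD livers and did not pass (-0.16 ± 0.12). Upstream of ATF4, 5 of 16 genes of the eIF2 alpha kinases, phosphatase and exchange factor were higher and 3 lower. The other 8 missed the threshold, and the median was 0.064. Over all tested genes the shares were 20.7% higher and 19.2% lower. Ppp1r15b, a phosphatase subunit that reverses the phosphorylation of eIF2 alpha, rose by 0.42 ± 0.050, Eif2b4 of the exchange factor by 0.37 ± 0.074 and Gcn1, which activates the kinase GCN2, by 0.34 ± 0.083. The kinase genes Eif2ak3 (PERK, -0.29 ± 0.086, adjusted p = 0.0138) and Eif2ak4 (GCN2, -0.27 ± 0.086, adjusted p = 0.0224) fell, as did Impact, an inhibitor of GCN2 activation (-0.30 ± 0.067). Between the LP4 and SP1 livers by themselves Eif2ak3, Eif2ak4 and Gcn1 were not called, at adjusted p of 0.216, 0.0806 and 0.0592. Eif2ak4 lost its call in 5 of the 22 alternatives, 2 of them without SPD replicate 1 (adjusted p = 0.0548) and without SPD replicate 4 (adjusted p = 0.0501). Impact missed the threshold, at an adjusted p of 0.0614, once LPD replicate 1 was counted as SPD.

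Atf3, Cebpb and Cebpd also answer to handling of tissue and to inflammatory signals, so genes of both were set beside them. For the counts of each list below, the shares over all tested genes were 20.7% higher and 19.2% lower. Of 16 immediate early genes, Ier2 was higher (0.59 ± 0.090), Ier3 was lower (-0.58 ± 0.18) and the other 14 missed the threshold (median -0.096). Their summed level was 195 to 368 CPM in LPD and 261 to 353 CPM in SPD livers, and the lowest sums, 195 and 221 CPM, were those of LPD replicates 2 and 5, the livers that lay apart on the first principal component. Of 15 macrophage markers, Marco was higher (0.53 ± 0.19), Cd68 (-0.45 ± 0.12), Lyz2 (-0.44 ± 0.15) and Cd5l (-0.42 ± 0.15) were lower and 11 did not pass. The sum of these markers was 809 and 755 CPM in LPD replicates 2 and 5 and 1040 to 1176 CPM in the other 4 LPD livers, against 1014 to 1477 CPM in SPD livers. Without LPD replicates 2 and 5, Lyz2 was at -0.21 (adjusted p = 0.0721) and Cd5l at -0.25 (adjusted p = 0.17), and neither was called. Of 12 stellate cell markers 1 was higher and 6 lower, led by Ecm1 (0.39 ± 0.093) and by Rgs5, Col3a1 and Col1a1 (-0.57, -1.13 and -1.11), with sums of 531 and 542 CPM in LPD replicates 2 and 5 and 682 to 831 CPM in the other 4 LPD livers, against 697 to 935 CPM in SPD livers.

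Endothelial markers fell in 3 of 10 cases (Cdh5, Vwf and Kdr, -0.37, -0.74 and -0.25), with sums of 444 to 505 CPM in LPD and 487 to 556 CPM in SPD livers. Of 8 neutrophil markers 4 were tested and S100a8 was lower (-1.01 ± 0.38), with sums of 3.04 to 7.50 CPM in LPD and 5.41 to 14.4 CPM in SPD livers. The calls of Marco, Lyz2, Cd5l and S100a8 were lost in 9, 8, 10 and 12 of the 22 alternatives. None of 5 tested T, B and NK cell markers was called of 12 listed, with sums of 3.77 to 7.56 CPM in LPD and 4.60 to 7.45 CPM in SPD livers. Of 6 tested cholangiocyte markers of 8 listed, Krt23 was higher (2.20 ± 0.40) and Spp1 lower (-1.95 ± 0.29). The other 4 did not pass, and the median was 0.096. Sums of these markers were 56.3 to 125 CPM in LPD and 157 to 453 CPM in SPD livers. Most of each sum was Spp1, at 38.6 to 107 CPM in LPD and 151 to 442 CPM in SPD livers. Of 12 hepatocyte markers 5 were higher, led by Cyp2e1 (1.85 ± 0.16), Hnf4a (0.41 ± 0.060) and Tat (1.38 ± 0.21), and Trf (-0.61 ± 0.076) and Ass1 (-0.68 ± 0.13) were lower. No marker of these lists was at 0 in all livers of a diet. In bulk RNA, fewer cells of a type and less RNA per cell cannot be told apart, and the part of these cells in the levels of the 10 genes was not tested.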

How the data were processed

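Bulk liver RNA of 12 mice was sequenced from TruSeq libraries. The values the authors deposited are expected counts per gene, not scaled between libraries, beside a gene length; this unit was read from the values. Between 17.1% and 18.9% of nonzero values were not whole. TopHat, DESeq2 and mm10 are named in the submitters' processing notes; the read counter, its annotation and its use of strand are not given here. Genes without a symbol, 1542 in number, held 0.214% of counts and stayed in the fit. Gene IDs were matched to GENCODE M21 (GRCm38, which mm10 corresponds to) for coordinates and exon overlaps.

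Counts were rounded and fitted in R 4.3.3 with edgeR 4.0.16: filterByExpr (minimum count 10, minimum total 15), TMM scaling, the quasi-likelihood F test of LPD over SPD with no further term, and Benjamini-Hochberg adjustment over all 13768 tested genes. A standard error is the absolute log2 fold change over the square root of F. CPM use TMM-scaled totals. The replicates are separate mice per the labels. The fit was tested on simulated data. The 10 genes, the lists and the tests were chosen with earlier results of these data known. Beside the 10 genes, the text names Eif2ak3, Eif2ak4, Cebpa, Trib1, Jun, Fos, Xbp1, Fgf21 and Chac1, up to 3 called genes of each list and direction with the smallest adjusted p, and the 3 genes most like a member among those with a mean log2 CPM (prior count 2) of at least 1. Any other gene was chosen after its value was seen. The 22 alternatives were 2 other scalings, 2 other filters, DESeq2 1.42.0, limma-voom 3.58.1, a replicate block, each of 12 libraries left out, LPD replicate 1 counted as SPD, the SP1 and LP4 libraries alone, and no LPD replicates 2 and 5.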

Additional observations from a re-analysis of the deposited data

Results flagged for a closer look

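Atf3 in SPD replicate 3 measured 16.0 CPM and stood away from the other SPD livers, of which the next was at 9.34 CPM. The gap was 0.779 of the range of the diet, above the critical value of 0.625 for 6 samples. The 10 genes gave 20 groups of 6 livers to examine, and chance marks about 1 in 20. Without this liver the Atf3 estimate was 1.40 (adjusted p = 0.00146), against 1.19 with it.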

How the results depend on the processing

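Of the 10 genes, 7 kept their direction and their call in all 22 alternatives, the exceptions being Atf4, Cebpb and Cebpd. The count of members higher in LPD livers was 7 to 9, with none lower, and 20 of 22 alternatives kept the Atf4 call. The count of genes called was 2850 higher and 2646 lower, and 1827 and 1693 between the LP4 and SP1 livers by themselves, where fewer samples were used. Further targets called lower numbered 3 there and 3 without LPD replicates 2 and 5, against 5 with all livers. Signs changed for Cebpb (-0.12) and Cebpa (-0.0080) with LPD replicate 1 counted as SPD, and for Fos under limma-voom (0.12), without SPD replicate 6 (0.017) and between the LP4 and SP1 livers (0.15); the cause was not tested. Without 1 library at a time, Fos ranged from -0.47 to 0.017. Calls were gained by Cebpb between the LP4 and SP1 livers (1.34), Cebpd without LPD replicates 2 and 5 (0.49) and Jun without LPD replicate 4 (-0.42). Over the 70 named genes, 62 of 1538 values under an alternative lost a call, in 16 genes, most often S100a8 (12), Cd5l (10), Marco (9), Lyz2 (8) and Orm2 (6). With the replicate number as a block, 2668 genes were higher and 2562 lower, and the same 8 members. The numbers do not pair the livers: same-numbered livers correlated at -0.054 to 0.097 in their deviations, and 1 of 6 LPD livers correlated best with its own number. Asns, Nupr1 and Cebpd rest on 54 to 368 counts a liver, which limits their precision.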

Other observations

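Acute phase genes, many of which C/EBP beta and delta activate in the inflamed liver, moved both ways. In LPD livers 7 of the 21 were higher and 3 lower, 11 did not pass, and the median log2 fold change was 0.16. Of all tested genes, 20.7% were higher and 19.2% lower. Apcs, serum amyloid P, rose by 1.88 ± 0.12 to 562 CPM in LPD against 153 CPM in SPD livers. The interleukin 6 receptor gene Il6ra rose by 1.07 ± 0.098, and Crp, C-reactive protein, by 0.49 ± 0.083. Orm1, an orosomucoid, fell (-0.93 ± 0.14), with its paralog Orm2 (-0.66 ± 0.22), with which it can share reads, and Il1rn, an antagonist of interleukin 1 (-0.73 ± 0.14). The Orm2 call was lost in 6 alternatives, at an adjusted p of up to 0.209.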
